A study of Mus musculus with 56 samples.

Results

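Adam23, Cadps2, Exoc4, Lpp, Met and Prkcb are 6 genes whose RNA was lower in mouse liver after each of the toxic antisense oligonucleotides of the study. They were selected on measured values: the rule took the genes that were lower both 72 h after the oligonucleotide TS-2 and 16 h after the oligonucleotide HTS-3, each against vehicle mice killed at the same time. Of 18194 genes tested, 6 met both conditions, and 22 of the 34958 probe sets annotated to a single gene belonged to them. The fall in those comparisons is therefore how the genes were chosen and is described below without a test. The TS-2 mice at 8 h, at 16 h and after 2 weeks, the HTS-3 mice at 8 h and all NTS-1 mice played no part as treated mice in the choice, and there the genes were tested.

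Livers came from 56 males of the outbred CD-1 strain, aged 6 to 8 weeks when dosing began, with 1 array per mouse. The oligonucleotides were locked nucleic acid (LNA) gapmers, short antisense strands whose modified ends flank a DNA core, so that RNase H cleaves an RNA paired with them, given by subcutaneous injection at 25 mg/kg. The labels name NTS-1 a non-toxic, TS-2 a toxic and HTS-3 a severely toxic sequence, and the sources used here do not give their bases or targets. After a single dose the groups were vehicle (Dulbecco's phosphate buffered saline) with 3 mice at each of 8, 16 and 72 h, NTS-1 with 3, 4 and 3 mice, TS-2 with 4, 3 and 4 mice, and HTS-3 with 3 mice at 8 h and 4 at 16 h. There is no HTS-3 group at 72 h, because death or moribund condition ended that group before its time. In a separate 2-week study mice were dosed on days 1, 4, 8 and 11 and killed on day 14, with 10 vehicle, 4 NTS-1 and 5 TS-2 mice. From 10 mice dosed per single-dose group, the 3 or 4 livers that ranked highest for minor hepatic hypertrophy were taken, so the groups do not stand for all dosed mice. The p-values measure the spread between these selected mice. In the single-dose fit that spread is shared by all 11 groups, those that chose the genes included.

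Values are intensities on a linear scale, and group levels are geometric means over mice. An intensity under 32 is called dim. The share of probe sets at or above that level ran from 32.1% to 33.3% on the 37 single-dose arrays and from 54.3% to 57.5% on the 19 arrays of the 2-week study, which have their own scale and were fitted apart. On the single-dose arrays some deposited values repeat exactly: Adam23 stands at 49.1 on 11 of 37 arrays and Prkcb at 50.3 on 10, so small differences of these genes are not resolved, while on the 2-week arrays each member has 19 distinct values. The HTS-3 mouse numbered 3 at 8 h carries both times in its labels. It was placed by its title, its profile correlated at 0.952 to 0.976 with the other HTS-3 mice of 8 h and at 0.884 to 0.955 with those of 16 h, and the values of 8 h after HTS-3 are given below with and without it. Hepatocyte markers had a summed intensity of 315849 to 475621 over all single-dose livers, with 1 of 11 measured markers dim in every group, and neuron and glia markers stayed at 137 to 254. Vehicle mouse 1 of 16 h stood apart in the neutrophil markers, at a summed intensity of 28563 against 247 in the lowest mouse of its group, and TS-2 mouse 3 of 72 h in those of the sinusoidal endothelium, at 2921 against 10084 in the highest. In whole liver, fewer cells of a type and less RNA per cell cannot be told apart.

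The 6 genes do not form a textbook pathway. Met encodes the receptor tyrosine kinase for hepatocyte growth factor, which drives hepatocyte growth, survival and regeneration after liver injury. Exoc4 (SEC8) is a subunit of the exocyst, the complex that tethers secretory vesicles to the plasma membrane, and Cadps2 primes dense-core vesicles for calcium-dependent release. Lpp is a zyxin-family LIM protein of focal adhesions, Adam23 is a membrane protein of the disintegrin family without protease activity that binds LGI proteins, and Prkcb is the beta member of the conventional protein kinases C, which calcium and diacylglycerol activate. A protein's abundance is not seen by these arrays, which measure RNA.

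All 6 genes have an entry in RefSeq's table of promoter windows. The stretches of 120 bases just before the annotated starts of 4 genes are shown because their RNA later separates them. Cadps2 and Met fell furthest after 2 weeks of TS-2, and Exoc4 was already lower at 8 h after HTS-3. Prkcb, at a dim level in most vehicle and TS-2 mice, alone showed no fall after 2 weeks. The sequences are RefSeq's for GRCm38.p6, 5′ to 3′ on the gene's strand, and capitals mark matches on either strand to the GC box GGGCGG, the CCAAT box CCAAT, the TATA box TATAAA or the E-box CACGTG, none of which overlap in these stretches. The windows are chr6:23839422-23839541 on the minus strand for Cadps2, chr6:17463837-17463956 on the plus strand for Met, chr6:33249008-33249127 on the plus strand for Exoc4 and chr7:122289005-122289124 on the plus strand for Prkcb.
Cadps2: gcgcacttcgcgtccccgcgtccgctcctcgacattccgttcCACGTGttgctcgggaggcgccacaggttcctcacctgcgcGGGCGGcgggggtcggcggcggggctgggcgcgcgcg
Met: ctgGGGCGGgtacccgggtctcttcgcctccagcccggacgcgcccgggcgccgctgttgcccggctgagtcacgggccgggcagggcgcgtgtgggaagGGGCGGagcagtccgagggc
Exoc4: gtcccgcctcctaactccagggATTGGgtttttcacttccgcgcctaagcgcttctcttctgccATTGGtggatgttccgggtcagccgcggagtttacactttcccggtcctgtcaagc
Prkcb: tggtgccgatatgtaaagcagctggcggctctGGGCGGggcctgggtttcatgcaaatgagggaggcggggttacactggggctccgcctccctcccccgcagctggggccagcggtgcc
Over the full 250 bases before the start, Cadps2 holds 3 GC boxes and 1 E-box, Met 3 GC boxes and 1 E-box, Exoc4 2 CCAAT boxes and Prkcb 1 GC box, and none of them a TATA box. Of all 32851 RefSeq windows of that length 32.7% hold a GC box, 33.8% a CCAAT box, 12.4% a TATA box and 6.02% an E-box, and the matches describe the windows only. No motif of the 4 stands in the window of Adam23 or in either window of Lpp. The base composition is 78.0% G and C for Cadps2, 74.0% for Met, 65.2% for Prkcb and 54.8% for Exoc4, against a median of 52.4% over all windows. Cadps2, Met and Exoc4 lie on chromosome 6, which carries 5.68% of the RefSeq windows.

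In both of the comparisons that chose the genes Prkcb had the shallowest fall. Cadps2 had the deepest at 72 h after TS-2. At 16 h after HTS-3 Cadps2 and Exoc4 differed from vehicle by -3.20 and -3.19, so their order was not resolved. At 72 h after TS-2, 23 of the genes tested (0.126%) were lower, and at 16 h after HTS-3 734 were (4.03%). The 6 shared genes are 26.1% of the first list and 0.817% of the second. The members nearest inside the limit of 0.05 were Exoc4 and Prkcb, both with an adjusted p of 0.049 at 72 h after TS-2 (limma), and Lpp with 0.0446. Just outside were Mindy3, lower after HTS-3 but with 0.231 at 72 h after TS-2, and Cdc42 and Pigk, lower after TS-2 but with 0.105 and 0.123 at 16 h after HTS-3. Prkdc, a dim gene, lay further out with 0.687 after HTS-3. St6galnac3 and Gnb4, dim genes with 0.125 and 0.186 at 72 h after TS-2, also lay outside. With vehicle mouse 2 or TS-2 mouse 1, 2 or 4 of 72 h left out, 3 of the 6 genes stayed inside the limit at 72 h. Because these mice chose the genes, the adjusted p-values of the members only give their distance from the limit and are no test.

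Met, the growth factor receptor, stood at 371, 463, 719 and 453 in the TS-2 mice of 72 h against 1919, 2773 and 2557 in their vehicle mice. In the HTS-3 mice of 16 h it was 486, 269.7, 996 and 253 against 1583, 2754 and 2682. All 8 treated mice lay under all vehicle mice of their time. The difference on the log2 scale was -2.30 ± 0.33 (SE) for TS-2, a 4.91-fold lower level, and -2.41 ± 0.33 for HTS-3, 5.33-fold lower.

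Among the genes of vesicle traffic, Cadps2 fell to 39.6, 202, 116 and 26.3 at 72 h after TS-2, where vehicle mice had 944, 895 and 945. After HTS-3 it was 213, 42.8, 165 and 58.0 at 16 h against 711, 1439 and 689.5. The treated mice spread widely, but none came near the vehicle mice. The log2 difference was -3.72 ± 0.53 for TS-2, 13.2-fold lower, and -3.20 ± 0.53 for HTS-3, 9.21-fold lower. Exoc4, the exocyst subunit, was 26.8, 47.2, 103 and 24.9 in the TS-2 mice against 121, 145 and 186, with 1 mouse at 103 close to the vehicle range. That mouse is the one with few endothelial marker transcripts, and without it the Exoc4 difference at 72 h was -2.23 in place of -1.80. All 4 HTS-3 mice of 16 h carried the same deposited Exoc4 value of 16.5, which is dim, against 121, 200.4 and 140.3 in vehicle mice. A bound that sets values under 32 to 32 gives an Exoc4 level at least 4.70-fold lower there.

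Lpp, the adhesion protein, had 181, 304, 404 and 242 at 72 h after TS-2 against 589.9, 872 and 492 in vehicle mice. HTS-3 mice of 16 h had 271, 137, 236 and 280.1 against 492, 839 and 766. The highest treated mouse stayed under the lowest vehicle mouse in both. The log2 difference was -1.22 ± 0.25 and -1.62 ± 0.25.

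Adam23 and Prkcb reached the dim range. Both were dim in all 4 TS-2 mice of 72 h, and of the HTS-3 mice of 16 h 3 were dim for Adam23 and none for Prkcb. Adam23 read 16.3, 24.7, 21.0 and 15.2 at 72 h after TS-2 against 48.9, 87.7 and 80.7, which is at least 2.19-fold lower with dim values set to 32. HTS-3 mice of 16 h read 24.3, 25.2, 32.2 and 22.2 against 58.5, 106 and 50.8, a log2 difference of -1.41 ± 0.24. Vehicle mouse 2 of 16 h had the highest Adam23, and without it that difference was -1.08. Prkcb read 25.4, 30.8, 29.5 and 24.6 at 72 h after TS-2 against 43.0, 64.1 and 50.3, at least 1.62-fold lower. The 4 HTS-3 mice of 16 h read 34.9, 45.9, 40.9 and 45.9 against 67.3, 89.5 and 68.4. Its log2 difference there was -0.84 ± 0.19, the smallest of the 6.

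The treated mice that chose the genes were also set against NTS-1 mice, and HTS-3 against TS-2 at 16 h, again as a description only. All 6 genes were lower on average, but not all groups were wholly apart. At 72 h against NTS-1 4 genes were wholly apart, while Exoc4 and Lpp overlapped. At 16 h HTS-3 mice lay wholly below the NTS-1 mice for 6 genes and below the TS-2 mice for 4, with overlap for Met and Adam23. At 72 h the TS-2 mice were below the NTS-1 mice by -3.37 for Cadps2, -2.18 for Met, -1.51 for Exoc4, -1.37 for Adam23, -0.90 for Prkcb and -0.88 for Lpp, where 0.154% of all genes were lower. HTS-3 mice of 16 h were below the NTS-1 mice by -3.45 for Cadps2 and Exoc4, -2.36 for Met, -1.19 for Lpp, -1.09 for Adam23 and -0.48 for Prkcb, where 4.46% of all genes were lower. HTS-3 and TS-2 at the same dose and time of 16 h differed by -2.93 for Exoc4, -2.71 for Cadps2, -1.43 for Lpp and -1.33 for Met, but by only -0.30 for Adam23 and -0.29 for Prkcb, where 3.8% of all genes were lower. Adam23 in the TS-2 mice of 16 h, at 29.1 to 34.4, lay near the HTS-3 mice.

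**Figure D1:**
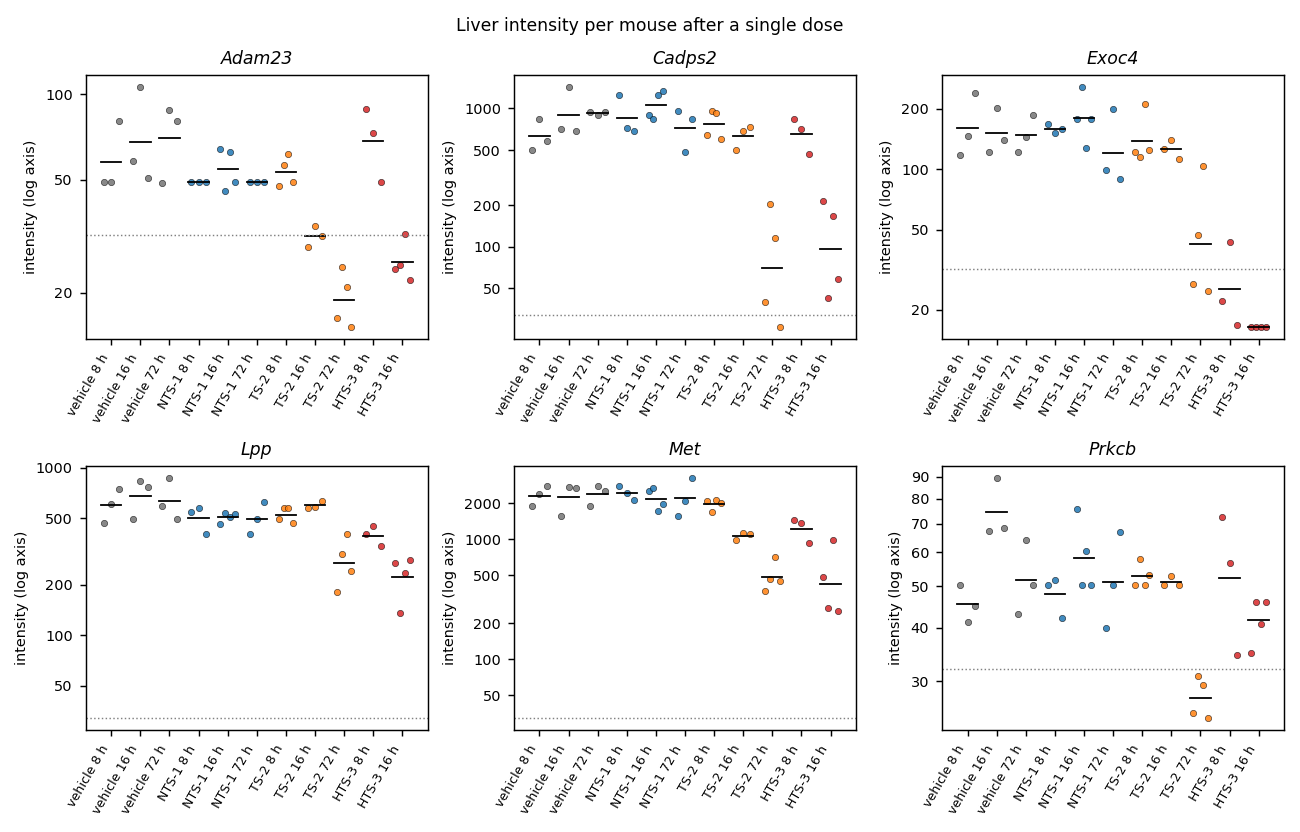
Intensity per mouse (log axis) of the 6 genes in the 11 single-dose groups, 1 point per mouse, with the geometric mean as a bar and a dotted line at 32. The TS-2 mice of 72 h and the HTS-3 mice of 16 h, which chose the genes, lie under the vehicle mice of their time in all 6 panels, and Exoc4 is already low in the HTS-3 mice of 8 h.

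At 8 h after HTS-3, in mice the rule did not use, Exoc4 was the single member that fell past the test. It read 22.2, 43.5 and 16.8 in the HTS-3 mice, while the vehicle mice read 117, 146 and 239. No HTS-3 mouse came within the vehicle range. The log2 difference was -2.66 ± 0.41 (adjusted p 8.11e-04, limma with Benjamini-Hochberg), a level 6.31-fold lower and lower in 3 of 3 mice. With the dim values set to 32 the ratio is 4.51. Exoc4 ranked 14 by p of 18194 genes, of which 77 (0.423%) were lower. Without the HTS-3 mouse whose labels conflict the difference was -2.36 with an adjusted p of 0.00877. A fit on these 6 mice alone, in place of the 11 groups, gave an adjusted p of 0.561 for the same difference, and the replicate block gave 1. The fit over 11 groups takes its spread in part from the mice that chose the genes. Among those, the 4 HTS-3 mice of 16 h had an Exoc4 SD of 0 on the log2 scale. The SD was 0.70 in the HTS-3 and 0.53 in the vehicle mice of 8 h. The adjusted p of 8.11e-04 (limma) is therefore not fully independent of the rule.

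Met and Lpp were also lower in every HTS-3 mouse of 8 h than in any vehicle mouse, but did not pass. Met read 1447, 1385 and 929 against 1908, 2379.55 and 2781, a log2 difference of -0.92 ± 0.36 with an adjusted p of 0.289. Lpp read 401, 449 and 342 against 472, 612 and 751, a difference of -0.61 ± 0.27 with 0.358. Without the HTS-3 mouse whose labels conflict, Met differed by -0.72 (adjusted p 0.593) and Lpp by -0.50 (adjusted p 0.689). Cadps2, which later stood far below vehicle, read 832, 705.5 and 469.7 against 502, 839 and 584. Its difference of 0.05 has a 95% interval from -1.11 to 1.22. Adam23 and Prkcb differed by 0.24 and 0.20, with adjusted p of 1 each and overlapping groups. Without that mouse the differences were 0.29 for Cadps2, 0.48 for Adam23 and 0.50 for Prkcb, with adjusted p of 1, 0.621 and 0.327. The summed Kupffer cell and macrophage markers were 24903 to 44550 in these HTS-3 mice against 15662 to 18934 in vehicle mice, hepatocyte markers overlapped, and the part of cell content in the Exoc4 result was not tested.

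The sequences were set side by side at 8 h, where dose and time match. Exoc4 was lower after HTS-3 than after NTS-1, whose mice read 167, 151 and 159, by -2.65 ± 0.41 (adjusted p 3.44e-04), among 91 genes lower (0.5%). It was also lower than after TS-2, whose mice read 121, 114, 212 and 124, by -2.45 ± 0.38 (adjusted p 9.90e-04), among 40 genes lower (0.22%). Without the mouse whose labels conflict these differences were -2.35 (adjusted p 0.00549) and -2.15 (adjusted p 0.0155). Fits on the compared groups alone gave adjusted p of 0.399 against NTS-1 and 0.322 against TS-2, and the replicate block gave 1 in both. The other 5 genes did not pass in either comparison. Met came closest, at -0.99 ± 0.36 with an adjusted p of 0.391 against NTS-1, with a 95% interval from -1.72 to -0.26, and at -0.69 ± 0.33 with 0.741 against TS-2. Without that mouse Met differed by -0.79 from NTS-1 and by -0.49 from TS-2. These comparisons share the HTS-3 mice with one another. How the sequences differ in structure is not stated in the labels.

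The 6 genes stood near vehicle level at 8 h after TS-2. None was called lower or had an unadjusted p under 0.05, where 7 of all genes were lower (0.0385%; 195 without vehicle mouse 3, 2 to 4 without a TS-2 mouse), and the log2 differences ran from -0.23 for Met to 0.29 for Cadps2. The interval for Met reached down to -0.91, so it does not leave out a fall of that size. Against NTS-1 at 8 h, where 0.506% of all genes were lower, again none of the 6 was called, and the differences ran from -0.30 to 0.14.

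At 16 h after TS-2, Adam23, Met and Prkcb lay under all vehicle mice without passing the test. The vehicle mice of 16 h are those of the HTS-3 comparison that chose the genes, so these values are not independent of the rule. Met read 985, 1134 and 1111 against 1583, 2754 and 2682, a log2 difference of -1.08 ± 0.36 with an adjusted p of 0.915. Adam23 read 29.1, 34.4 and 31.8 against 58.5, 106 and 50.8, a difference of -1.11 ± 0.25 with 0.391, rank 8 by p. Just 3 genes of 18194 were lower in that comparison (0.0165%), and none of them was a member, although 3 members had an unadjusted p under 0.05. Prkcb read 50.3, 52.7 and 50.3 against 67.3, 89.5 and 68.4, a difference of -0.54 ± 0.21. Its vehicle level was highest at this time, at 74.4 against 45.4 at 8 h and 51.8 at 72 h. Cadps2, Exoc4 and Lpp overlapped with vehicle, with differences of -0.50, -0.27 and -0.18. With limma's array weights, Adam23, Met and Prkcb passed, with adjusted p of 0.00563, 0.00207 and 0.0273. Those weights called more genes in general, 188 of 18194 lower and 146 higher. Without vehicle mouse 1, which had high neutrophil markers, Met differed by -1.34 and Adam23 by -1.22, and neither passed.

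At 16 h TS-2 was also set against the NTS-1 mice, none of which the rule used. NTS-1 mice read 2537, 2682, 1725 and 1972 for Met, all above the TS-2 mice, a difference of -1.03 ± 0.33 with an adjusted p of 0.645. Adam23 differed by -0.79 ± 0.24 with 0.487 and Cadps2 by -0.74 ± 0.53 with 1, each with the groups wholly apart. Exoc4, at -0.52 ± 0.38, and Prkcb, at -0.19 ± 0.19, overlapped with NTS-1. None of the 6 was called among the 41 genes that were lower (0.225%), and 2 had an unadjusted p under 0.05. Array weights called Adam23 and Met, with adjusted p of 0.0426 and 0.00802 (limma), among 98 genes lower. Lpp was higher after TS-2 in all mice, at 578, 587 and 638 against 459.9, 538, 506 and 533, by 0.24 ± 0.25 with an adjusted p of 1.

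NTS-1, the non-toxic sequence, left no member called lower at any time, nor any with an unadjusted p under 0.05 (limma). At 8 h 19 genes were lower (0.104%), at 16 h 4 were (0.022%), at 72 h 0 were (0%), and after 2 weeks 439 were (3.04%). The last count ran from 105 without NTS-1 mouse 3 to 939 without vehicle mouse 2, and was 0 with vehicle mice 1 to 5 as the controls. The differences of the 6 genes from vehicle ran from -0.26 to 0.45 at 8 h, from -0.42 to 0.25 at 16 h, from -0.52 to -0.01 at 72 h and from -0.32 to 0.20 after 2 weeks. Vehicle mice at 16 and 72 h are shared with the choice. The 72 h value of Adam23, -0.52 ± 0.25, comes from 3 NTS-1 mice that all carry the repeated value of 49.1. For Met the intervals at 72 h and after 2 weeks ran from -0.84 to 0.62 and from -0.24 to 0.49. With this number of mice, changes within these bounds are not left out.

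**Figure D2:**
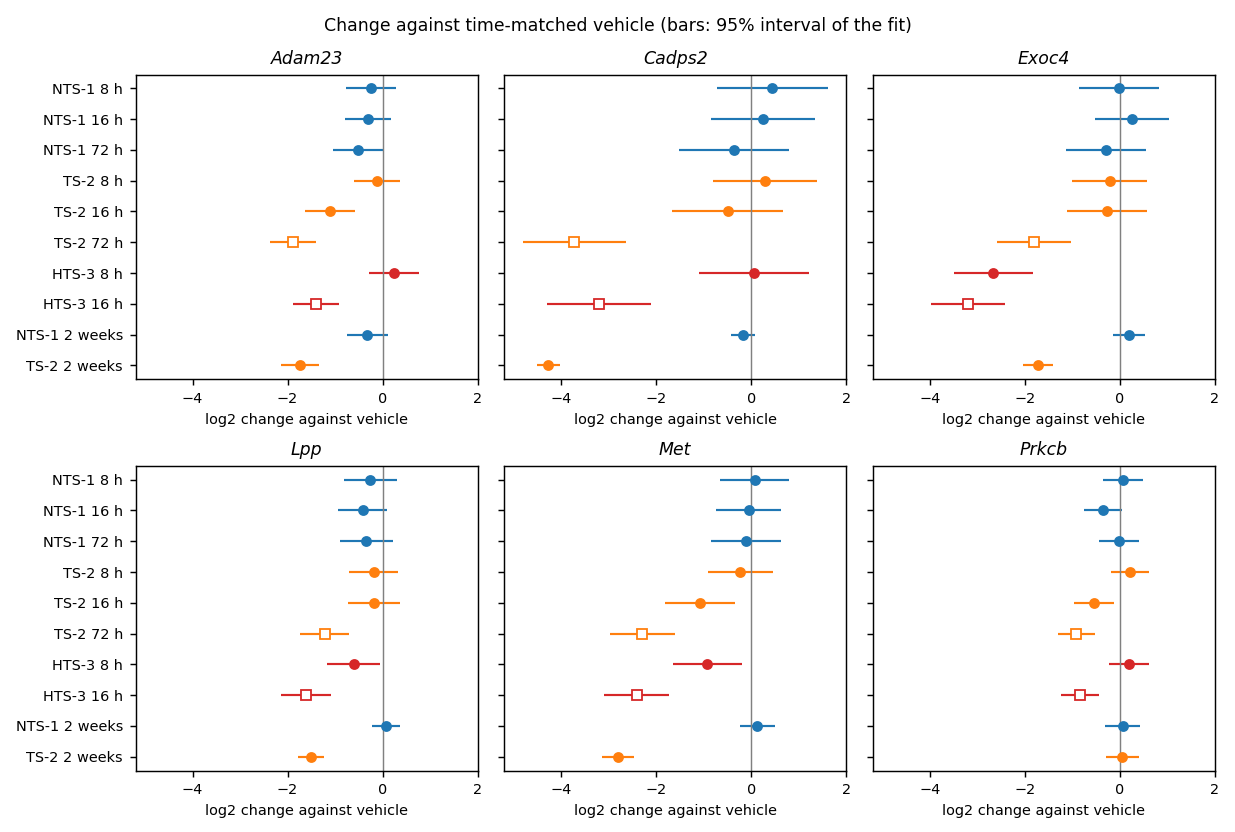
Log2 change of each gene against vehicle mice of the same time (x axis) in 10 comparisons (y axis), with the 95% interval of the limma fit as bars. Open squares are the pair of comparisons that chose the genes and are shown as a description, filled circles are the others, and the filled points that passed are Exoc4 after HTS-3 at 8 h and all genes but Prkcb after TS-2 at 2 weeks.

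After 2 weeks of repeated TS-2, in separate mice with their own vehicle group, 5 of the 6 genes were lower than vehicle past the test and Prkcb was not. Of 14454 genes tested there, 2104 were lower (14.6%) and 3301 higher (22.8%), so a call in this comparison is common, and the sizes of the falls tell more than the count. The median difference of the 6 was -1.73 against -0.01 over all genes. For no member did the NTS-1 mice separate from the vehicle mice.

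Cadps2 had the smallest p-value of all 14454 genes, and its fall is a bound. Its 5 TS-2 mice read 27.6, 23.6, 23.3, 24.4 and 19.2, all dim, while the 10 vehicle mice ran from 364 to 620.4 with a median of 437. With dim values set to 32 the level was at least 14.1-fold lower, and the fitted difference was -4.27 ± 0.12 (adjusted p 1.46e-15). The 4 NTS-1 mice read 379, 433, 389.9 and 403, and TS-2 differed from them by -4.10 ± 0.14 (adjusted p 1.68e-13).

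Met ranked 3 by p. TS-2 mice read 117, 89.1, 79.8, 155 and 169, and vehicle mice ran from 624 to 985 with a median of 826. NTS-1 mice read 877, 1067.5, 1065 and 638. Every TS-2 mouse was far under every other mouse, and the difference from vehicle was -2.81 ± 0.16 (adjusted p 9.04e-10), 6.99-fold lower.

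Exoc4, Lpp and Adam23 fell by less. Exoc4 read 99.1, 43.4, 82.1, 49.7 and 70.7 against a vehicle range of 156 to 256 with a median of 227, a difference of -1.72 ± 0.15 (adjusted p 2.47e-07), 3.30-fold lower. Lpp read 413, 271, 279, 191 and 249 against 615 to 920.5 with a median of 780, a difference of -1.50 ± 0.13 (adjusted p 2.27e-07), 2.84-fold lower. The groups of both genes were wholly apart. Adam23 read 29.5, 42.4, 44.6, 30.5 and 61.5 against 98.9 to 224 with a median of 128, a difference of -1.74 ± 0.19 (adjusted p 1.95e-06), 3.34-fold lower in 5 of 5 mice. When all probe sets of each gene were averaged, some of them dim, the differences were -0.81 for Adam23, -0.97 for Exoc4 and -1.0 for Lpp, and all 3 still passed.

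Prkcb showed no fall after 2 weeks. Its TS-2 mice read 27.5, 27.5, 36.8, 22.5 and 57.7 and its vehicle mice ran from 23.7 to 42.2 with a median of 31.0, so that most mice of both groups were dim. The difference was 0.05 ± 0.17 (adjusted p 0.834), with a 95% interval from -0.29 to 0.40. The vehicle level lay in the dim range, at 31.3, with 3 of 10 mice at 32 or more, and 1 of the 3 Prkcb probe sets was tested. The scale also differs from that of the single-dose arrays. The interval therefore bounds the change in intensity, and cannot decide whether the RNA fell as at 72 h after TS-2, by -0.92.

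Against NTS-1 after 2 weeks, the same 5 genes passed, among 1002 genes lower (6.93%). Met differed by -2.93 ± 0.20, Exoc4 by -1.92 ± 0.19, Lpp by -1.57 ± 0.16 and Adam23 by -1.42 ± 0.23, all with the groups wholly apart, and Prkcb by -0.01 ± 0.20. With the mean of the probe sets Adam23 differed by -0.67, Exoc4 by -1.06 and Met by -1.92, and each still passed. TS-2 mice also had lower sinusoidal endothelial markers than vehicle mice, with 8 of 11 called lower. The summed intensity was 1397 to 3292 against 3104 to 5419 in vehicle mice, with medians of 1629 and 3515. NTS-1 mice, at 2273 to 3226 with a median of 2571, overlapped with both groups. Summed stellate and fibroblast markers were 7369 to 14539 in TS-2 mice against 5828 to 9380 in vehicle mice. The hepatocyte sum was 148055 to 164787 in TS-2 mice against 151414 to 168947 in vehicle mice, with 3 of 11 markers lower and 1 higher. The part of cell content in the member falls was not tested.

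**Figure D3:**
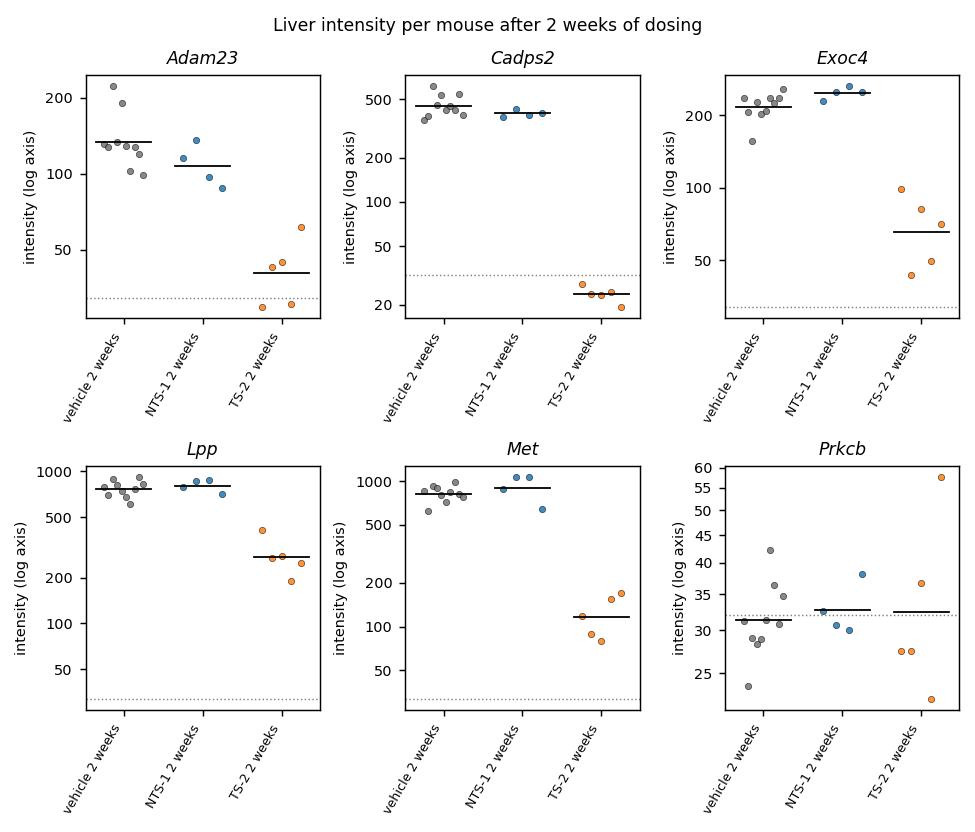
Intensity per mouse (log axis) of the 6 genes in the 3 groups of the 2-week study, 1 point per mouse, with the geometric mean as a bar and a dotted line at 32. All 5 TS-2 mice lie under all 10 vehicle and all 4 NTS-1 mice for every gene but Prkcb, and all 5 are under 32 for Cadps2.

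Several probe sets of a gene read different stretches of its RNA, and most moved together. After 2 weeks of TS-2, 15 of the 18 probe sets of the 6 genes that were tested were lower, where 13.3% of all 24707 probe sets were. Both Met probe sets fell, 1434447_at by 2.81 and 1422990_at by 1.21 on the log2 scale, and so did both tested Adam23 probe sets. Of 8 Lpp probe sets 7 were lower, and the last, 1446698_at, averaged 25.8 against 27.6, with both groups dim.

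Exoc4 held the exception. Probe sets 1422684_a_at, 1422685_at and 1422686_s_at differed by -1.72, -1.80 and -1.10 after 2 weeks of TS-2. Probe set 1431062_a_at averaged 102 in TS-2 and 113 in vehicle mice, a difference of -0.14 ± 0.10 with an adjusted p of 0.262 (limma). Its TS-2 mice ran from 87.1 to 118 and its vehicle mice from 101 to 143, so the ranges overlapped. The transcript it reads was not looked up here. On the single-dose arrays this probe set stood near the lowest value of the arrays, at 4.87 in HTS-3 and 5.12 in vehicle mice of 8 h. The neuron marker Syp and the T cell marker Cd3e showed the same contrast. Their medians were 103 and 112 on the 2-week arrays and 4.56 each on the single-dose arrays. The 2-week level of 1431062_a_at may thus be background, and it cannot show whether an Exoc4 RNA failed to fall.

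At 8 h after HTS-3 the 3 brighter Exoc4 probe sets were lower in every mouse than in any vehicle mouse. Probe set 1422684_a_at passed in the fit over probe sets (adjusted p 0.00139), where 102 of 34958 probe sets were lower (0.292%). The other pair differed by -1.42 ± 0.37 for 1422685_at and by -1.12 ± 0.27 for 1422686_s_at, with adjusted p of 0.103 and 0.074. Without the HTS-3 mouse whose labels conflict the 3 differed by -2.36, -1.39 and -1.15, with adjusted p of 0.0108, 0.127 and 0.0769. The 4 Lpp probe sets above the dim level in vehicle mice disagreed in size there, from -1.10 ± 0.48 for 1455314_at to -0.08 ± 0.24 for 1454899_at, and none passed. Without that mouse these were -0.59 and -0.04. Over 5 Exoc4 probe sets the mean difference was -1.07, with an adjusted p of 0.00116, or 0.00802 without that mouse.

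**Figure D4:**
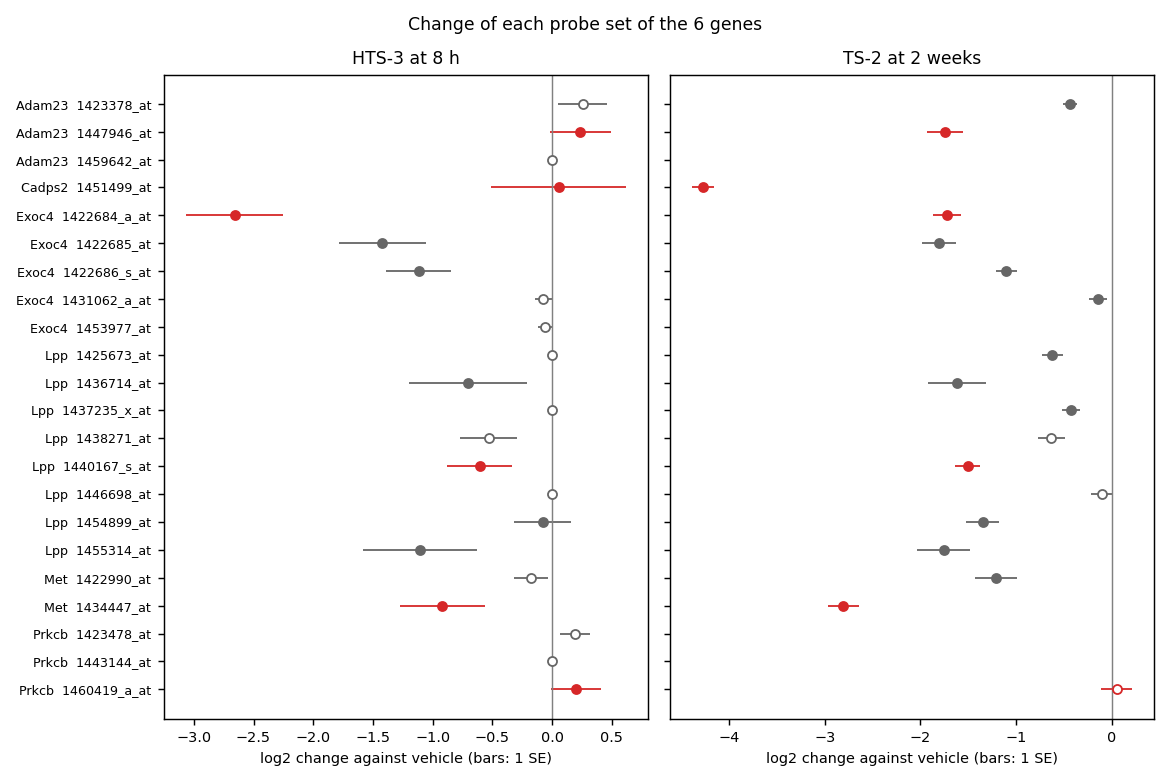
Log2 change against vehicle (x axis, bars are 1 SE) of the 22 probe sets of the 6 genes at 8 h after HTS-3 and after 2 weeks of TS-2, where 4 were not tested and have no point. Red marks the probe set used for the gene and open circles a vehicle level under 32. The 3 bright Exoc4 probe sets lie left of 0 in both panels, and 1431062_a_at lies near 0 in the right one.

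Over the 11 single-dose groups the order of the levels differed between the genes. The TS-2 mice of 72 h and the HTS-3 mice of 16 h stand low for each by the way the genes were chosen, so the orders are a description. The lowest Met levels were 426 in the HTS-3 mice of 16 h, 486 in the TS-2 mice of 72 h, 1075 in the TS-2 mice of 16 h and 1230 in the HTS-3 mice of 8 h, and the remaining 7 groups lay between 1990 and 2446 with overlapping mice. The first pair of these overlapped as well. For Cadps2 the TS-2 mice of 72 h were lowest at 70.3, then the HTS-3 mice of 16 h at 96.7, with overlapping mice, and the next group stood at 627. For Exoc4 the HTS-3 mice of 16 h (16.5) and of 8 h (25.3) came before the TS-2 mice of 72 h (42.5), of which the last pair overlapped, and the next group stood at 121. For Lpp the order was 222, 271 and 395 in the HTS-3 mice of 16 h, the TS-2 mice of 72 h and the HTS-3 mice of 8 h. Each of these overlapped with the next, and the other groups lay between 498 and 681. The HTS-3 mice of 8 h also overlapped with the NTS-1 mice of 8 and 72 h. For Adam23 the TS-2 mice of 72 h (18.9), the HTS-3 mice of 16 h (25.7) and the TS-2 mice of 16 h (31.6) were lowest, each overlapping with the next, and the other groups lay between 49.1 and 70.2. For Prkcb the TS-2 mice of 72 h stood at 27.4 and the HTS-3 mice of 16 h at 41.7, and the latter overlapped with the next group, the vehicle mice of 8 h at 45.4.

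Outside the groups that chose them, the genes varied together less. Over the other 29 single-dose arrays, deviations from same-time vehicle means correlated at 0.72 for Adam23 and Prkcb, 0.60 for Exoc4 and Met, 0.51 for Lpp and Met and 0.51 for Adam23 and Cadps2, but at -0.15 for Adam23 and Exoc4 and -0.22 for Exoc4 and Prkcb. Over all 37 arrays the correlations ran from 0.45 to 0.88. The arrays share vehicle means and normalization, and these values describe the arrays only.

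The genes nearest to each member were taken by the correlation of that deviation over 37 arrays, among 9125 genes above the dim level on 3 or more arrays. The 37 include the 8 arrays that chose the members, so high values are in part set by the choice, and the values that follow are a description. Nearest to Exoc4 were Dock1 (0.89), Plcb1 (0.88) and Rabgap1l (0.88). Nearest to Met were Ptpn1 (0.86), Mindy3 (0.83) and Rev3l (0.83), and nearest to Lpp were Gnaq (0.85), Cmtm6 (0.85) and Smarca2 (0.84). Cadps2 was closest to Mindy3 (0.81), Gpr107 (0.81) and Ptpn1 (0.80), Adam23 to Pigk (0.80), Cdc42 (0.78) and Mindy3 (0.78), and Prkcb to Pigk (0.84), Wwc2 (0.83) and Oit3 (0.76). Over the other 29 arrays the same pairs ran from 0.31 for Met and Mindy3 to 0.83 for Exoc4 and Rabgap1l. A near gene need not have changed with the member elsewhere: after 2 weeks of TS-2 Gpr107 differed from vehicle by 0.02 and Smarca2 by -0.08.

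All 6 genes are long. Their spans in RefSeq's GRCm38.p6 annotation are 111 kb for Met, 150.4 kb for Adam23, 345 kb for Prkcb, 578 kb for Cadps2, 599 kb for Lpp and 725 kb for Exoc4. The median span of all genes tested is 20.3 kb, over the 99.1% that have one, and 12.4% of them span 100 kb or more. Among the other 17 genes lower at 72 h after TS-2 the median is 38.1 kb and 5 span 100 kb or more. Span was not used by the rule.

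**Figure D5:**
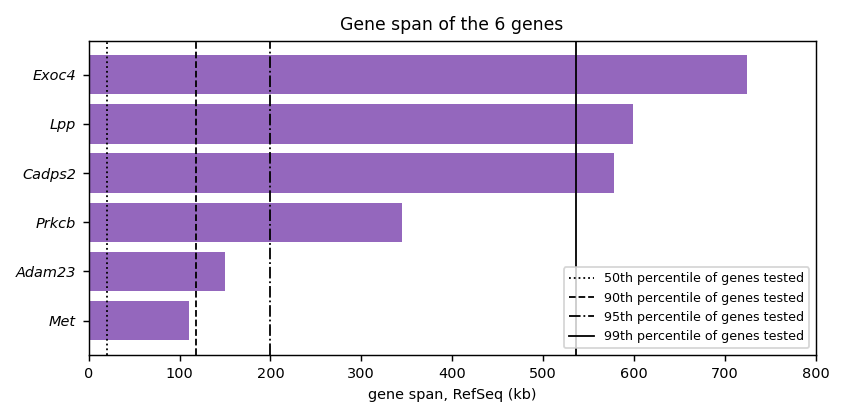
Gene span in kb (x axis, from 0) of the 6 genes, with lines at the 50th, 90th, 95th and 99th percentile of the genes tested. Met lies between the first pair of lines and Exoc4, Lpp and Cadps2 beyond the last.

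Over all genes, the shares called higher were 0.0055%, 0% and 0.011% at 8, 16 and 72 h after TS-2, and 0.165% and 3.31% at 8 and 16 h after HTS-3. Of 31 further genes of hepatocyte growth factor and Met signalling, none passed at 8, 16 or 72 h after TS-2, with 4, 0 and 0 at an unadjusted p under 0.05. At 8 h after HTS-3 1 was lower, Sos1, a guanine nucleotide exchange factor that links receptors to Ras, at 179 against 523, a difference of -1.55 ± 0.36 (adjusted p 0.0382). Without the HTS-3 mouse whose labels conflict it was -1.46 and no longer passed (adjusted p 0.0806). Later, 16 h after HTS-3, 3 were lower and none higher, Sos1 by -2.66 ± 0.33, Lrig1 by -0.67 ± 0.20 and the adaptor Grb2 by -0.30 ± 0.09, where 4.03% of all genes were lower. The median of the list at that time was 0 on the log2 scale, as over all genes. After 2 weeks of TS-2 1 of 29 was lower and 10 were higher, with a list median of 0.23 against -0.01, where 14.6% of all genes were lower and 22.8% higher. The one that fell was Hgfac, the protease that activates the growth factor, by -0.65 ± 0.15, and the largest rises were Spint2, its inhibitor, by 1.00 ± 0.10, Stat3 by 0.90 ± 0.17, the phosphatase Ptpn11 by 0.88 ± 0.10 and Mst1 by 0.79 ± 0.11. The ligand Hgf showed a difference of 0.41 ± 0.16 with an adjusted p of 0.0523.

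Among 16 other genes of the exocyst and its small GTPases, Cdc42 was the one lower at 72 h after TS-2, by -1.25 ± 0.09 (adjusted p 1.02e-09), and after 2 weeks it was lower by -2.79 ± 0.18 (adjusted p 3.38e-09). HTS-3 at 16 h left Exoc6 lower by -1.19 ± 0.14 and Rala lower by -0.60 ± 0.17, where 4.03% of all genes were lower. After 2 weeks of TS-2, 4 were lower and 4 higher: the subunit Exoc3 (-1.20 ± 0.23) fell, the subunit Exoc8 (1.05 ± 0.19) and the GTPase Rhoq (1.47 ± 0.23) rose, and the list median was 0.05. Over all genes 14.6% were lower there and 22.8% higher. At 8 h after HTS-3, when Exoc4 was low, none of the 16 passed and 1 had an unadjusted p under 0.05.

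Around Cadps2, of 27 genes of regulated vesicle release, none passed at 8, 16 or 72 h after TS-2 or at 8 h after HTS-3, with 0, 2, 1 and 4 at an unadjusted p under 0.05. HTS-3 at 16 h left Syt1, a calcium sensor of synaptic vesicles, lower by -2.01 ± 0.50, and Stx2, a syntaxin of the plasma membrane, Rab3d and Snap29 higher, Stx2 by 1.07 ± 0.15, where 4.03% of all genes were lower and 3.31% higher. After 2 weeks of TS-2, 3 of 22 were lower, with Vamp7 at -1.03 ± 0.21, and 5 were higher, with Stx2 at 1.05 ± 0.13. Over all genes 14.6% were lower and 22.8% higher, and the median of the list was 0.04.

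The relatives of Lpp did not follow it after 2 weeks of TS-2. Of 23 further genes of the zyxin family and focal adhesions, 0 were lower and 11 higher (limma) there, with a list median of 0.51 against -0.01, where 22.8% of all genes were higher. Lasp1 rose by 1.13 ± 0.12, the adhesion protein Tln1 by 1.04 ± 0.17, Zyx itself by 0.93 ± 0.20 and Vcl by 0.92 ± 0.15. These rises went with the higher stellate and fibroblast markers given above, and the part of those cells was not tested. Trip6 at 16 h after HTS-3 was higher by 1.04 ± 0.14 and Pxn lower by -2.30 ± 0.36, and Pxn was also lower at 8 h, by -1.87 ± 0.38 (adjusted p 0.0178), but not past the test without the mouse whose labels conflict, at -1.38 (adjusted p 0.0771). None of the 23 passed at 8, 16 or 72 h after TS-2, with 2, 0 and 0 at an unadjusted p under 0.05.

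Of 13 other protein kinase C genes and relatives, none passed at 8, 16 or 72 h after TS-2, with 0, 0 and 3 at an unadjusted p under 0.05. In HTS-3 mice of 16 h 3 of the 13 were lower, Prkcz by -1.26 ± 0.25, Prkce by -0.72 ± 0.21 and Prkch by -0.48 ± 0.14, where 4.03% of all genes were. After 2 weeks of TS-2, 2 of 12 were lower, Pkn2 by -1.34 ± 0.19 and Prkce by -0.59 ± 0.22, and 2 were higher, Prkd2 by 0.50 ± 0.09 and Prkci by 0.32 ± 0.11, where 14.6% of all genes were lower and 22.8% higher. Of 19 genes of the ADAM family and its regulators and LGI ligands, the protease Adam10 was lower at 16 h after HTS-3, at a mean of 667 against 1334 in vehicle mice (adjusted p 0.00588), and none passed at 8, 16 or 72 h after TS-2, with 1, 0 and 1 at an unadjusted p under 0.05. After 2 weeks Adam10 was higher by 0.55 ± 0.17, Rhbdf2 by 0.92 ± 0.14 and the inhibitor Timp1 by 0.92 ± 0.32, and Adam28 was lower by -0.31 ± 0.11, with 1 lower and 4 higher of 16, again beside 14.6% and 22.8% of all genes.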

How the data were processed

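Per the submitters' processing notes the deposited values came from RMA, of unstated version. As deposited by the authors they are intensities on a linear scale. Their log2 was taken here, although log2 values had been planned for. Probe sets were named from the platform annotation, in which 34958 of 45101 had 1 gene. A gene took its probe set with the highest mean, provided that 3 or more arrays had it at their 40th percentile or higher. In the 2-week set this left out 3740 genes, in the single-dose set none. Each set had 1 limma model (limma 3.58.1, R 4.3.3) over its 11 or 3 groups, with 21 comparisons and Benjamini-Hochberg adjustment over all genes of a comparison at 0.05. The script was tested on simulated data. No pair of arrays was identical over 837 pairs.

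The 6 genes and the gene lists were chosen with earlier results of these data known. Named beside them are the 3 genes most alike and, per list and comparison, up to 4 genes past the test by size. Hgf, Hgfac and Adam28, and the genes just outside the rule, were named after their values were seen. Replicate numbers were not seen to pair mice: in 0 of 18 comparisons did all same-numbered pairs correlate above 0.1. With so few mice per group this check cannot show that pairing was absent. The number of arrays limits the precision. Alternatives were the mean of the probe sets, a fit per probe set, no filter, a filter at 32, quantile normalization, array weights, the compared groups alone, a replicate block, vehicle mice 1 to 5 or 6 to 10, the HTS-3 mouse with conflicting labels moved or left out, and each mouse left out; the Actb 3'/5' ratio as a covariate, and that HTS-3 mouse left out for Sos1, Pxn and single probe sets, were chosen after seeing the data.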

Additional observations from a re-analysis of the deposited data

Results flagged for a closer look

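Exoc4 in 1 of the 4 TS-2 mice of 8 h was 212, far above the next, at 124. Among the 10 vehicle mice of the 2-week study the lowest Exoc4 value was 156, and the next was 203. The check for a mouse far from the others covered 41 combinations of 1 gene and 1 group with 4 or more mice. Groups of 3 mice were not checked. These 2 combinations stood out, and chance marks about 1 in 20.

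Prkcb lay above the vehicle mean in all 4 TS-2 mice of 8 h, by 0.22 on the log2 scale, and below it in all 3 TS-2 mice of 16 h, by -0.54. The TS-2 level was much the same at both times, at 52.8 and 51.1. The vehicle level was 45.4 at 8 h and 74.4 at 16 h. The difference between the times was not tested, and 2 of the TS-2 mice at each time carry the repeated value of 50.3.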

How the results depend on the processing

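Of the counts of members called lower, those for TS-2 after 2 weeks stayed at 5 against vehicle and against NTS-1 under every alternative run, the replicate block included, and those for NTS-1 and for TS-2 at 8 h stayed at 0. With array weights the count rose from 0 to 3 for TS-2 against vehicle at 16 h and from 0 to 2 against NTS-1. For HTS-3 against NTS-1 at 8 h it rose from 1 to 2, where Met joined Exoc4. Calls over all 18194 genes rose as well in these comparisons, from 3 to 188, from 41 to 98 and from 91 to 369 lower. A fit on the compared groups alone gave 0 for HTS-3 at 8 h against vehicle, NTS-1 and TS-2, as did the replicate block. Such a fit has fewer mice to estimate the spread and leaves out the groups that chose the genes. With any 1 mouse left out the HTS-3 counts at 8 h stayed at 1. In the comparisons that chose the genes, the members past the limit at 72 h after TS-2 were 4 with the mean of the probe sets or a fit per probe set, 0 with the compared groups alone or the replicate block, and 3 to 6 with 1 mouse left out, at 3 without vehicle mouse 2 or TS-2 mouse 1, 2 or 4. At 16 h after HTS-3 they were 1 with the compared groups alone, 0 with the replicate block and 6 with any 1 mouse left out. The mean of the probe sets brought the Met difference at 72 h after TS-2 from -2.30 to -1.30 and that of Exoc4 from -1.80 to -0.77. In the vehicle mice of 72 h, 1 of 2 Met and 3 of 5 Exoc4 probe sets averaged 32 or more, and the others were dim. The cause of the smaller differences was not tested. The Actb 3'/5' ratio as a covariate, chosen after seeing the data, moved no count of members by over 1.5 times. Repeated values and dim intensities limit what can be said of Adam23 and Prkcb. Genes called lower overall at 8 h after HTS-3 numbered 77, and 0 to 266 over the alternatives.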
